A study of Mus musculus with 89 samples.

Results

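The kainate receptor family is described here through 7 genes: the subunit genes Grik1, Grik2, Grik3, Grik4 and Grik5, and the auxiliary subunit genes Neto1 and Neto2. The members are the probe sets whose single gene symbol is one of these names, which gave 1 probe set per gene and 7 of the 22206 probe sets on the array. Kainate receptors are tetrameric glutamate-gated cation channels that act on both sides of the synapse. The GluK1, GluK2 and GluK3 subunits, encoded by Grik1, Grik2 and Grik3, can form channels by themselves, whereas the high-affinity subunits GluK4 and GluK5 need one of them as a partner. Neto1 and Neto2 are transmembrane proteins that bind the channel and alter its gating. In the forebrain GluK1 is known above all from GABAergic interneurons, and kainate receptors modulate transmitter release and the wiring of young circuits.

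Total RNA from dissected brain hemispheres was measured in 89 mouse embryos taken on embryonic day 18.5, each on its own Clariom S array. Ts65Dn embryos (n = 23) carry an extra chromosome made of a distal part of chromosome 16 (Mmu16) and a proximal part of chromosome 17 (Mmu17). Their euploid littermates (EupTs65Dn, n = 18) carry no extra chromosome. Ts66Yah embryos (n = 24) carry the extra Mmu16 part without the Mmu17 part and were set against their own euploid littermates (EupTs66Yah, n = 24). All animals were on a B6 X C3H mixed background, none was treated, and the extra chromosome of Ts65Dn came through the dam. Each colony gave 6 litters, and every litter held embryos of both genotypes. Grik1 lies on the Mmu16 part and is present in 3 copies in both trisomic groups, against 2 copies in euploid embryos. Grik2 lies on chromosome 10, Grik3 on 4, Grik4 on 9, Grik5 on 7, Neto1 on 18 and Neto2 on 8, and none of these is triplicated in either model.

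Some arrays stood apart. The array of EupTs66Yah embryo 16 had a standard deviation of 1.13 over all probe sets, against 2.23 to 2.39 in the other EupTs66Yah arrays, and 6 of the 7 members had their lowest EupTs66Yah value on it. The Ts66Yah change of each member is therefore given with and without it. The mean of the other 116 measured genes of the Mmu16 segment lay nearer the other genotype's median in 4 embryos, namely Ts65Dn embryo 18, Ts66Yah embryos 13 and 24, and EupTs66Yah embryo 24. Y-linked genes went against the sex label in 17 arrays. The median signal of all probe sets was 5.34 in Ts65Dn and 5.32 in EupTs65Dn, and 6.40 in Ts66Yah and 6.36 in EupTs66Yah, so the colonies lay at different levels and genotypes were compared only within a colony. Of 7 measured forebrain genes Lhx2, the brightest, was at least as bright as 93.8% and 91.5% of probe sets in the Ts65Dn and Ts66Yah colonies, and Emx1, the dimmest, as 51.6% and 46.2%. Of 7 measured midbrain and hindbrain genes Hoxb2 was the brightest in the Ts65Dn colony (44.4%) and En2 in the Ts66Yah colony (54.7%), so the lists overlapped in the Ts66Yah colony. Signals are log2 values throughout, and a signal of one probe set is not set against another as an amount of RNA.

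Grik1 was higher in trisomic than in euploid embryos in both colonies. Its signal (probe set TC1600001993.mm.2) in Ts65Dn was lowest at 6.58, had a median of 6.99 and was highest at 7.50, against 6.32, 6.58 and 7.16 in EupTs65Dn. All 23 Ts65Dn embryos lay above the EupTs65Dn median and 7 lay above every EupTs65Dn embryo, so the groups overlapped. Grik1 averaged 7.04 ± 0.22 in Ts65Dn (SD, n = 23) and 6.61 ± 0.24 in EupTs65Dn (SD, n = 18). The log2 difference was 0.43 (SE 0.073, 95% interval 0.28 to 0.58), a 1.35-fold rise with an adjusted p of 0.00021 by limma. The share of all probe sets called in either direction at a 10% false discovery rate in this comparison was 0.491%, and Grik1 had the 67th smallest p.

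Grik1 in the other colony was 7.99 at the lowest, 8.55 at the median and 9.02 at the highest in Ts66Yah, against 6.47, 8.07 and 8.43 in EupTs66Yah. The 6.47 belongs to the low-spread array, without which the lowest EupTs66Yah value was 7.31. Of 24 Ts66Yah embryos, 23 lay above the EupTs66Yah median and 16 above every EupTs66Yah embryo. Grik1 averaged 8.51 ± 0.25 in Ts66Yah (SD, n = 24), against 7.96 ± 0.45 in EupTs66Yah (SD, n = 24) or 8.03 ± 0.33 without the low-spread array (SD, n = 23). The log2 difference was 0.55 (SE 0.11, 95% interval 0.33 to 0.76, 1.46-fold, adjusted p = 0.0066 by limma). Without the low-spread array it was 0.48 (SE 0.084, 95% interval 0.31 to 0.65, 1.40-fold, adjusted p = 0.00037 by limma). The shares of probe sets called were 0.171% with all arrays and 0.932% without that array. The call with all arrays was lost when litter WT12 was left out (log2 difference 0.52, adjusted p = 0.20 by limma), and it held without that litter once the low-spread array was left out too (0.43, adjusted p = 0.025). With array spread as a covariate and without the low-spread array the difference was 0.36 (adjusted p = 0.0074).

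A ratio of 3 to 2 gene copies corresponds to a log2 difference of 0.58. The 95% interval of the Grik1 change ended just under this value in Ts65Dn (0.578 against 0.585) and held it in Ts66Yah. These intervals come from the fits without litter, and the Ts65Dn change was 0.46 with the litter as a replicate block. The change in Ts65Dn minus that in Ts66Yah was -0.12 on the log2 scale (SE 0.13, 95% interval -0.38 to 0.15, adjusted p = 0.76 by limma in 1 fit of all 4 groups). Without the low-spread array it was -0.05 (95% interval -0.28 to 0.17, adjusted p = 0.95). A difference between the models was thus not detectable for Grik1, within intervals that still allow one of either sign. In these bulk samples more RNA per cell and more cells of a type cannot be told apart.

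**Figure D1:**
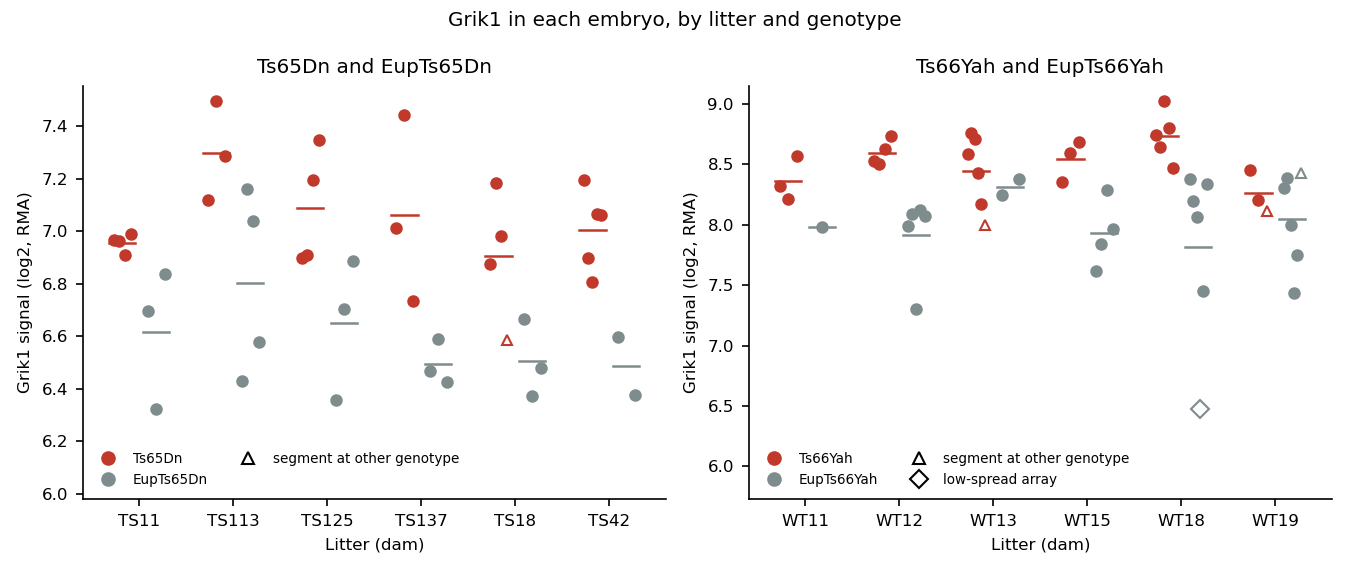
Grik1 signal (log2, vertical axes, which differ between panels) in each embryo, by litter (horizontal axes), with trisomic embryos left of their euploid littermates and lines at the mean of each litter and genotype. Open triangles are the 4 embryos whose segment mean lay nearer the other genotype and the open diamond is the low-spread array; the trisomic mean is the higher one in all 12 litters.

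The direction held in every litter. In the Ts65Dn colony the trisomic minus euploid difference of litter means was 0.34 in TS11, 0.50 in TS113, 0.44 in TS125, 0.57 in TS137, 0.40 in TS18 and 0.52 in TS42. In the Ts66Yah colony it was 0.38 in WT11, 0.68 in WT12, 0.13 in WT13, 0.62 in WT15, 0.92 in WT18 and 0.21 in WT19, and 0.65 in WT18 without the low-spread array. Litters were small: WT11 held 1 euploid embryo, and WT13 and TS42 held 2 each. The smallest differences, in WT13 and WT19, belong to the litters of Ts66Yah embryos 13 and 24 and EupTs66Yah embryo 24. With the litter as a replicate block the log2 difference was 0.46 in Ts65Dn (adjusted p = 4.4e-05 by limma) and 0.55 in Ts66Yah (adjusted p = 0.034). Ts65Dn embryo 18 and Ts66Yah embryo 13 had the lowest Grik1 signal of their groups, 6.58 and 7.99, and EupTs66Yah embryo 24 the highest of its group, 8.43. These Grik1 values lie on the same side as the rest of the segment in those embryos.

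Many but not all of the other genes of the Mmu16 segment were called higher too. Of the other 116 measured genes of the segment, 54 were called higher in Ts65Dn, 25 in Ts66Yah and 58 in Ts66Yah without the low-spread array, and 0 were called lower. Of all probe sets, 0.459%, 0.162% and 0.757% were called higher in the same order. Among the 59 with a mean signal at or above the median of all probe sets, the median fold was 1.36 in Ts65Dn, 1.43 in Ts66Yah and 1.33 in Ts66Yah without that array. The log2 change of Grik1 was larger than that of 27, 34 and 44 of these 59 genes in the same order. Of 17 genes listed as neighbours of Grik1, all lying between App and Hunk, 11 were called higher in Ts65Dn, 4 in Ts66Yah and 14 without the low-spread array, and 0 were called lower. That list leaves out most of the dim genes just after Grik1. The 32 measured genes directly after it, from Cldn17 to Krtap11-1 and most of them keratin-associated, all had a mean signal below the median of all probe sets. By limma 0 of the 32 were called in each of the 3 comparisons, and 0, 3 and 2 had an unadjusted p under 0.05, against 5.79%, 10.2% and 12.1% of all probe sets. Their median log2 difference was 0.03 in Ts65Dn, -0.12 in Ts66Yah and -0.02 without the low-spread array. The amyloid precursor gene App had a log2 difference of 0.38 in Ts65Dn (SE 0.043, adjusted p = 6.5e-08 by limma), 0.61 in Ts66Yah (SE 0.26, adjusted p = 0.43) and 0.34 without that array (SE 0.045, adjusted p = 1.7e-06). Cct8, a chaperonin subunit, differed by 0.40, 0.59 and 0.32 in these comparisons, and Sod1, the cytosolic superoxide dismutase, by 0.48, 0.49 and 0.34. For both genes the middle value missed the threshold. Hunk, a protein kinase gene, was called in all 3 comparisons, with log2 differences of 0.41, 0.50 and 0.51. Bach1, the measured gene just before Grik1, differed by 0.26 in Ts65Dn (adjusted p = 0.0039 by limma), by 0.38 in Ts66Yah (adjusted p = 0.35) and by 0.25 without the low-spread array (adjusted p = 0.0053). Cldn17, the measured gene just after it, differed by 0.16, -0.27 and -0.11 in the same order.

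**Figure D2:**
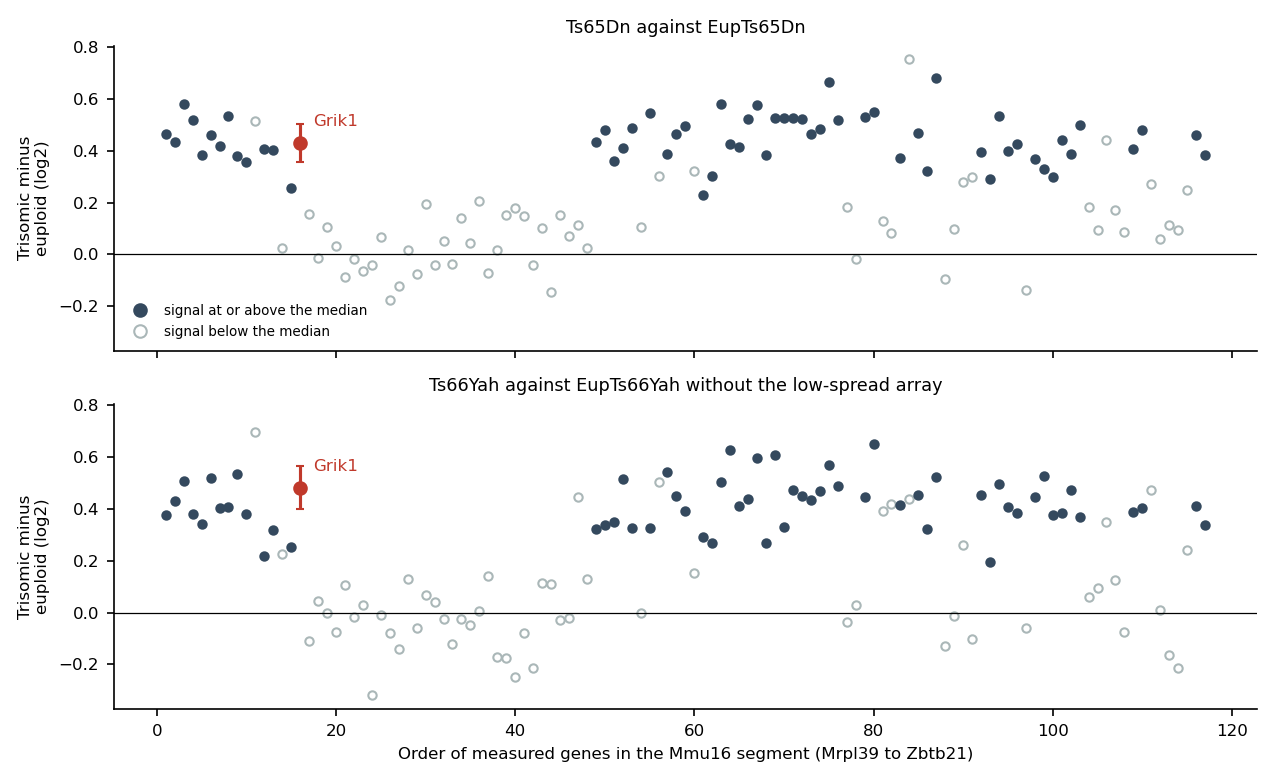
Trisomic minus euploid log2 difference (vertical axes) of the 117 measured genes of the Mmu16 segment in their chromosomal order (horizontal axis), for Ts65Dn above and Ts66Yah without the low-spread array below. Grik1 is red with its SE, filled points have a mean signal at or above the median of all probe sets, and Grik1 sits at 0.43 and 0.48 among filled points whose median folds were 1.36 and 1.33.

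Grik2 and Grik3, the other subunits able to form channels alone, showed no change that passed the test. Grik2 (probe set TC1000002121.mm.2) had a lowest, median and highest signal of 8.65, 8.90 and 9.21 in Ts65Dn, against 8.69, 8.95 and 9.20 in EupTs65Dn. These ranges almost coincide, and the log2 difference was -0.04 (95% interval -0.14 to 0.06, adjusted p = 0.98 by limma). In the other colony Grik2 had 9.56, 10.17 and 10.51 in Ts66Yah, against 9.67, 10.08 and 10.40 in EupTs66Yah without the low-spread array, on which it read 5.98. Its log2 difference was 0.21 with all arrays (95% interval -0.14 to 0.57) and 0.04 without that array (95% interval -0.08 to 0.16), with adjusted p of 0.60 and 0.81 by limma. Trisomic means were higher in 3 of 6 litters in each colony.

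Grik3 (probe set TC0400001445.mm.2) had 7.07, 7.37 and 7.65 in Ts65Dn, against 6.92, 7.37 and 7.68 in EupTs65Dn, with medians equal to 2 decimals. The log2 difference was 0.00 to 2 decimals (95% interval -0.12 to 0.12). In Ts66Yah it had 8.29, 8.87 and 9.09, against 8.07, 8.77 and 9.17 in EupTs66Yah without the low-spread array. The Ts66Yah embryos lay inside the euploid range there. It differed by 0.23 with all arrays (adjusted p = 0.56 by limma) and 0.08 without that array (95% interval -0.06 to 0.22, adjusted p = 0.67). Trisomic means of Grik3 were higher in 3 of 6 litters of the Ts65Dn colony and in 4 of 6 of the Ts66Yah colony.

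Grik4 and Grik5 encode the high-affinity subunits, and neither passed the test. Grik4 (probe set TC0900002121.mm.2) had 5.60, 6.25 and 6.66 in Ts65Dn, against 5.58, 6.17 and 6.65 in EupTs65Dn, a log2 difference of 0.05 (95% interval -0.13 to 0.23, adjusted p = 0.99 by limma). It was the dimmest member relative to its array median, at 60.9% and 63.2% of the ranked probe sets in the 2 colonies. In Ts66Yah it had 6.23, 7.32 and 7.84, against 6.92, 7.38 and 7.74 in EupTs66Yah, where the low-spread array was not extreme. It differed by -0.08 (95% interval -0.27 to 0.12), and by -0.09 without that array. Trisomic means of Grik4 were higher in 3 of 6 litters in each colony. Grik5 (probe set TC0700002619.mm.2) had 8.09, 8.37 and 8.70 in Ts65Dn, against 7.77, 8.33 and 8.66 in EupTs65Dn. Its log2 difference was 0.06 (95% interval -0.06 to 0.18, adjusted p = 0.97 by limma). In Ts66Yah Grik5 had 9.26, 9.68 and 9.94, against 9.29, 9.65 and 9.81 in EupTs66Yah without the low-spread array. The trisomic minus euploid value was 0.20 with all arrays and 0.06 without that array (95% interval -0.04 to 0.17, adjusted p = 0.66 by limma). The trisomic mean of Grik5 was higher in 4 of 6 litters of the Ts65Dn colony and in 5 of 6 of the Ts66Yah colony.

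Neto1 and Neto2, the auxiliary subunits, did not pass either. Neto1 (probe set TC1800000897.mm.2) had 8.12, 8.40 and 8.75 in Ts65Dn, against 8.19, 8.44 and 8.76 in EupTs65Dn, a log2 difference of -0.05 (95% interval -0.16 to 0.05). In Ts66Yah it had 9.33, 9.76 and 10.00, against 9.42, 9.82 and 10.08 in EupTs66Yah without the low-spread array. Its log2 difference was 0.14 with all arrays and -0.05 without that array (95% interval -0.15 to 0.05, adjusted p = 0.74 by limma). Thus its sign turned with 1 array, which read 5.30 for Neto1. Trisomic means of Neto1 were higher in 4 of 6 litters in the Ts65Dn colony. In the Ts66Yah colony they were higher in 1 of 6, with or without that array.

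Neto2 (probe set TC0800002618.mm.2) was the member outside the segment with the smallest p in Ts65Dn. Its signal was 9.63, 9.95 and 10.16 in Ts65Dn, against 9.79, 10.03 and 10.20 in EupTs65Dn. The ranges overlapped widely, but only 4 of 23 Ts65Dn embryos lay above the EupTs65Dn median. Of 18 EupTs65Dn embryos, 14 lay above the Ts65Dn median. The log2 difference was -0.10 (95% interval -0.19 to -0.01, unadjusted p = 0.032, adjusted p = 0.83 by limma), and the trisomic mean was lower in 5 of 6 litters. The share of all probe sets with an unadjusted p under 0.05 in this comparison was 5.79%. In Ts66Yah Neto2 had a lowest value of 10.61 and a highest of 11.21, against 10.73 and 11.35 in EupTs66Yah without the low-spread array. It differed by 0.16 with all arrays and -0.05 without that array (95% interval -0.14 to 0.04, adjusted p = 0.68 by limma). The trisomic mean was higher in 2 of 6 litters of the Ts66Yah colony, with or without that array.

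**Figure D3:**
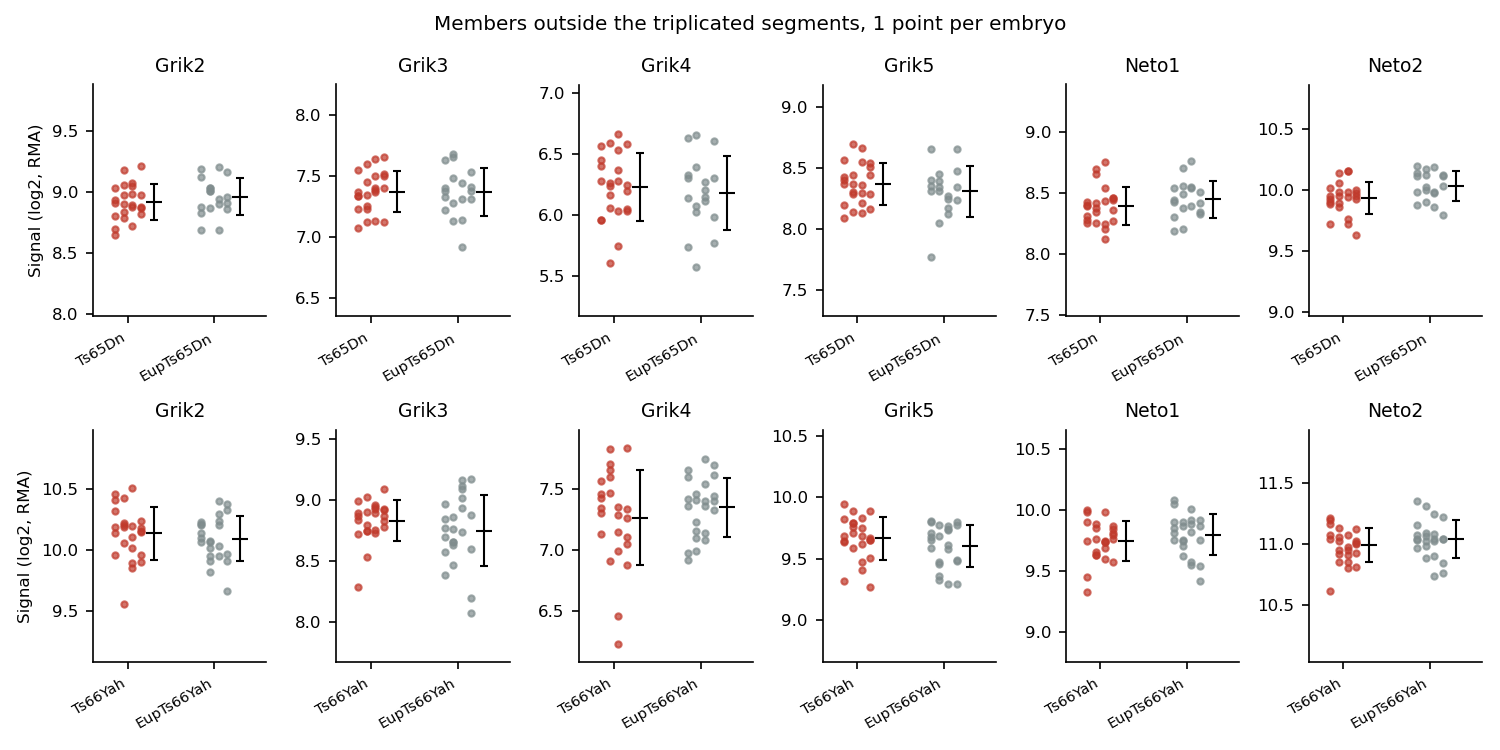
Signal (log2, vertical axes, each spanning the same width) of the 6 members outside the triplicated segment, with 1 point per embryo and the mean ± SD beside it, trisomic group left of its euploid group. The low-spread array is not drawn; in each of the 12 panels the points of the groups overlap over most of their range.

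Counted together, 1 of the 7 members was called in each comparison, Grik1 each time. The 6 others had a median log2 difference of -0.02 in Ts65Dn, with 3 higher and 3 lower means, where the median of all probe sets was 0.00. In Ts66Yah their median was 0.18 with all arrays, beside 0.04 for all probe sets, and 0.00 in both cases without the low-spread array. None of the 7 passed in the difference of effects between the models, where 0.00901% of probe sets were called with all arrays and 0.149% without that array. All 7 members had higher signals in the Ts66Yah colony, in both genotypes, as did the median probe set. The labels name no array batch, so a colony difference and a technical one cannot be told apart.

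**Figure D4:**
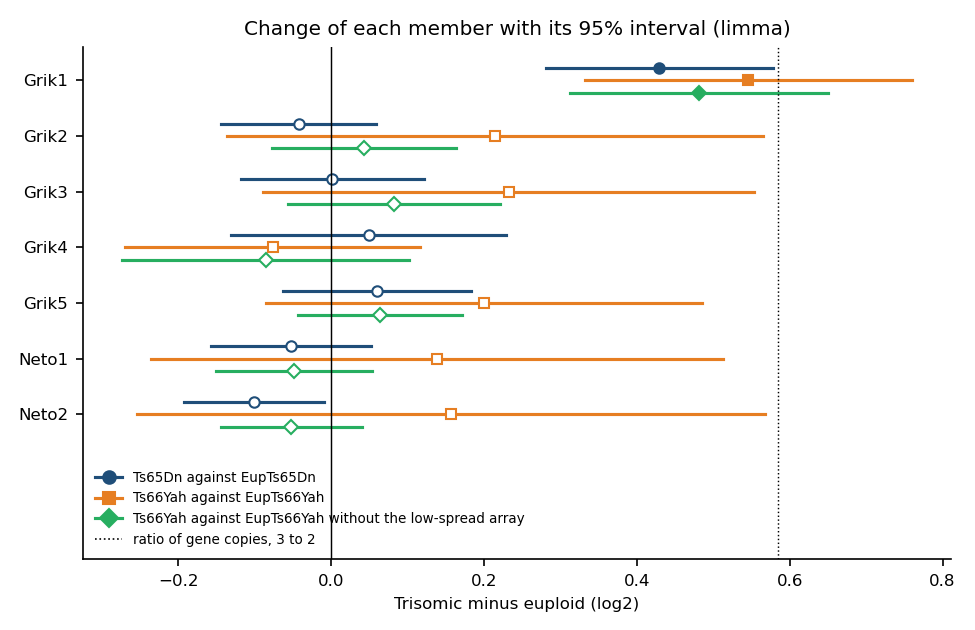
Trisomic minus euploid log2 difference (horizontal axis) of each member with its 95% interval from limma, in Ts65Dn, in Ts66Yah and in Ts66Yah without the low-spread array; filled symbols passed the 10% threshold and the dotted line marks 0.58. Grik1 lies at 0.43, 0.55 and 0.48 and the other members lie between -0.10 and 0.23, with wider intervals where the low-spread array is included.

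Neither litter nor sex gave a difference that passed for any member. Between litters of the Ts65Dn colony the smallest p was that of Neto1 (unadjusted p = 0.013, adjusted p = 0.31 by limma's F-test), whose Ts65Dn litter means ran between 8.27 in TS18 and 8.62 in TS113. Grik4 and Neto2 followed with unadjusted p of 0.026 and 0.027, and 0.378% of all probe sets were called. Between litters of the Ts66Yah colony the smallest unadjusted p was 0.092, for Grik5 without the low-spread array, where 0.0901% of all probe sets were called, and 0 with all arrays. Female minus male differences in the Ts65Dn colony, averaged over the genotypes, were -0.21 for Grik4, with plain means of 6.12 in females and 6.31 in males (unadjusted p = 0.020, adjusted p = 0.78), and -0.13 for Grik3 (adjusted p = 0.81), where 0.054% of probe sets were called. Grik1 differed by -0.03 between the sexes in the Ts65Dn colony and by 0.13 in the Ts66Yah colony without the low-spread array (adjusted p = 0.97 and 1.00), where 0.347% of probe sets were called, and 0.189% with all arrays. For the genotype effect in females minus males, 0 of 22206 probe sets were called in each colony by limma. Among members the smallest unadjusted p there with labels as given was 0.031, for Grik5 in the Ts66Yah colony without the low-spread array (0.23, adjusted p = 1.00). Without the arrays whose Y-linked genes went against the sex label, 0 members passed in either test. The genotype effect in females minus males was then 0.31 for Grik5 in the Ts66Yah colony (unadjusted p = 0.014 by limma). For Grik4 in the Ts65Dn colony it was 0.40 (unadjusted p = 0.020). Female minus male differences in that colony were then -0.16 for Grik4 and -0.17 for Grik3 (unadjusted p = 0.050 and 0.012 by limma).

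Members that varied together from embryo to embryo were sought within each colony, after each group's mean was subtracted and without the low-spread array. This gave 21 pairs in each of 2 colonies, 42 correlations in all, each with a permutation test of 100000 resamples and Benjamini-Hochberg adjustment over the 42. Neto1 and Neto2 had r = 0.62 and rho = 0.60 over 41 embryos of the Ts65Dn colony (adjusted permutation p = 0.00042 and 0.0010). Over the Ts66Yah colony they had r = 0.52 and rho = 0.48 over 47 embryos (adjusted permutation p = 0.0016 and 0.0045). Without the 2 embryos farthest from the Neto1 median r was 0.65 and 0.39, and with litter means subtracted it was 0.59 and 0.53. Of all other probe sets, 0.0315% and 1.54% had an r with Neto1 at least as high.

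Grik4 and Grik5, the high-affinity pair, had r = 0.48 and rho = 0.48 in the Ts65Dn colony (adjusted permutation p = 0.0085 and 0.0080). Over the Ts66Yah colony they had r = 0.41 and rho = 0.57 (adjusted permutation p = 0.020 and 0.00084). Without the 2 embryos farthest from the Grik4 median r was 0.53 and 0.49, and with litter means subtracted 0.42 and 0.44. Of all other probe sets, 0.158% and 0.27% had an r with Grik4 at least as high. Grik2 and Neto1 were the third pair past 10% in both colonies, with r of 0.35 and 0.44 (adjusted permutation p = 0.090 and 0.0089). Of all other probe sets, 2.56% and 6.79% had an r with Grik2 at least as high. That pair no longer passed in the Ts65Dn colony with litter means subtracted (r = 0.30), nor in either colony with array spread subtracted (r = 0.31 and 0.25).

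Pairs with Grik1 differed by colony in what passed. In the Ts66Yah colony Grik1 had r = 0.49 with Grik2 and 0.54 with Grik3 (adjusted permutation p = 0.0034 and 0.0010), with rho of 0.46 and 0.48 (adjusted permutation p = 0.0080 and 0.0045). In the Ts65Dn colony these r were 0.10 and 0.00, and no pair with Grik1 passed. The difference between colonies was not tested. Once the standard deviation of each array was also taken out, Grik1 and Grik2 no longer passed in the Ts66Yah colony (r = 0.27, adjusted permutation p = 0.23). Grik1 and Grik3 still passed there, with a lower r (0.34, adjusted permutation p = 0.093). In all, 3 of 21 pairs passed by r in the Ts65Dn colony and 8 of 21 in the Ts66Yah colony, all with positive r. By rho a negative pair also passed in the Ts65Dn colony, Grik3 and Neto1 (rho = -0.35, adjusted permutation p = 0.090). Its r there was -0.32 (adjusted permutation p = 0.14), against 0.36 in the Ts66Yah colony, where it passed. The 8 pairs of the Ts66Yah colony became 5 with array spread subtracted. For those 8 pairs the share of all other probe sets with an r at least as high with the same member ranged between 0.27% (Grik4 and Grik5) and 10.7% (Grik3 and Neto1). With the low-spread array included, r in the Ts66Yah colony reached 0.98 for Neto1 and Neto2. For Grik4 and Grik5 it fell to 0.23, and that pair no longer passed there (adjusted permutation p = 0.16).

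**Figure D5:**
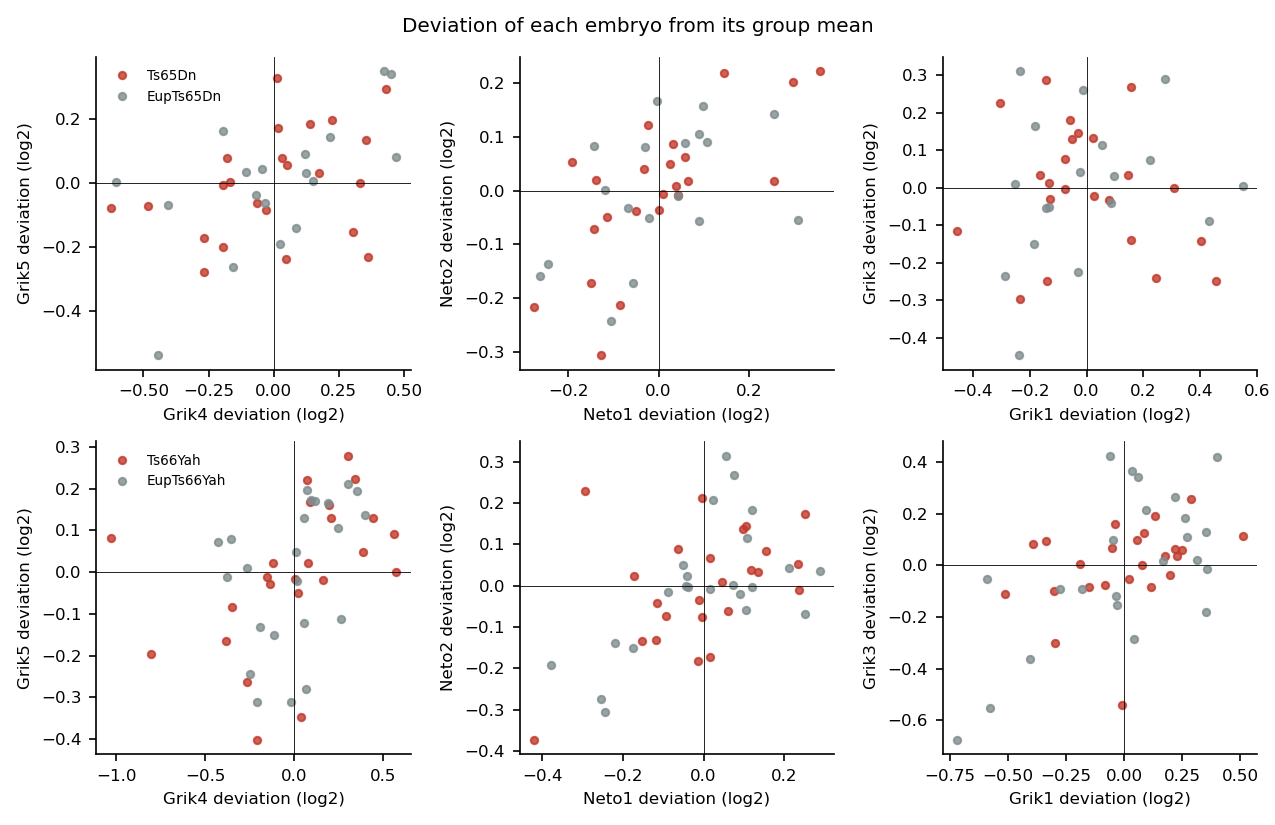
Deviation of each embryo from its group mean (log2, both axes) for Grik4 and Grik5, Neto1 and Neto2, and Grik1 and Grik3, in the Ts65Dn colony above and the Ts66Yah colony below, without the low-spread array. The first pair had r of 0.48 and 0.41, the second 0.62 and 0.52, and the third 0.00 and 0.54. Trisomic and euploid embryos share a centre by construction, because group means were subtracted.

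The genes whose signal most resembled each member's were ranked by the lower of the 2 within-colony r, over 41 and 47 embryos, as a description without a test. Arrays share litter and array-wide variation, which enters these values. For Grik1 they were Tmem191c (r 0.46 in the Ts65Dn colony and 0.60 in the Ts66Yah colony), Poglut3 (0.47 and 0.45) and Fndc3a (0.45 and 0.60). For Grik2 they were Tnc (0.57 and 0.60), Mycbp2 (0.55 and 0.68) and Psd3 (0.58 and 0.54), and for Grik3 they were Sh3rf3, Hectd4 and Fat4, with r between 0.45 and 0.61. Zcchc8, Bst1 and Vezf1 were nearest to Grik4, with r between 0.40 and 0.57. Cmip (0.60 and 0.65), Trim62 and Cdk16 were nearest to Grik5. Pik3r1 (0.66 and 0.71), Abce1 and Zfp975 were nearest to Neto1. Fubp1, Papola and the AMPA receptor subunit gene Gria2 (0.61 and 0.71) were nearest to Neto2.

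Other genes of glutamate signalling were counted for comparison. The 4 AMPA receptor subunits, 6 measured NMDA receptor subunits, the delta receptor Grid1, 17 measured partners of kainate receptors, 3 RNA editing enzymes, 6 measured metabotropic receptors and 8 glutamate transporters gave 0 calls in both models, with and without the low-spread array. Shares of all probe sets called were those given above for Grik1. Medians of these lists lay between -0.03 and 0.10 on the log2 scale in Ts65Dn. They lay between 0.08 and 0.25 in Ts66Yah with all arrays and between -0.06 and 0.19 without the low-spread array, each upper end being Grid1 alone. The members with the smallest p were Gria3 (0.23 in Ts66Yah with all arrays), Grin2d (0.17 in Ts65Dn), Grid1 (0.25 in Ts66Yah), Snap25, a vesicle fusion protein known to bind GluK5 (0.31 in Ts66Yah without the low-spread array, adjusted p = 0.17 by limma), Adarb2 (0.30 in Ts66Yah), Grm6 (0.27 in Ts65Dn, adjusted p = 0.43) and Slc1a6 (0.26 in Ts66Yah). Adarb1, the enzyme that edits Grik1 and Grik2 transcripts, differed by -0.01 in Ts65Dn, by 0.15 in Ts66Yah (adjusted p = 0.62 by limma) and by 0.02 without that array. Of 13 auxiliary subunits of AMPA receptors 1 was called, Shisa6, which was higher in Ts66Yah without the low-spread array (0.20, SE 0.054, adjusted p = 0.085 by limma) and had 0.25 with all arrays (adjusted p = 0.27) and 0.02 in Ts65Dn.

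Markers of the cells that could carry these receptors were set beside Grik1, and their part in its change was not tested. Of 16 measured GABAergic interneuron markers 0 were called. Means were lower for 13 of 16 in Ts65Dn, for 2 of 16 in Ts66Yah with all arrays and for 8 of 16 without the low-spread array. Of all 22206 probe sets, 11320, 9185 and 10744 had a lower mean in the same order. Their mean signal per embryo ranged between 7.51 and 7.82 in Ts65Dn, against 7.61 and 7.87 in EupTs65Dn. It ranged between 8.22 and 8.66 in Ts66Yah, against 8.05 and 8.55 in EupTs66Yah without the low-spread array, which read 5.61. The smallest p was that of Maf, with a log2 difference of -0.22 in Ts65Dn (adjusted p = 0.45 by limma). Of 11 measured markers of cortical excitatory neurons 0 were called, and their mean signal ranged between 8.09 and 8.55 in Ts65Dn, against 8.28 and 8.47 in EupTs65Dn. Of their 12 probe sets 10 had a lower mean in Ts65Dn, 2 in Ts66Yah with all arrays and 7 without the low-spread array. Among 8 astrocyte and radial glia markers Vim, an intermediate filament gene, was called higher in Ts66Yah without the low-spread array (0.19, adjusted p = 0.085 by limma). It differed by 0.42 with all arrays (adjusted p = 0.51) and by 0.02 in Ts65Dn. Of those 8 markers, 3 had a higher mean in Ts65Dn and 8 in Ts66Yah, with or without the low-spread array. Markers of oligodendrocyte precursors, microglia, choroid plexus, midbrain and hindbrain, diencephalon and forebrain identity gave 0 calls in both models. Means were higher for 6 of 7 midbrain and hindbrain markers in Ts65Dn and in Ts66Yah, with or without the low-spread array. The same held for 3 of 4 measured markers of oligodendrocyte precursors.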

How the data were processed

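The submitters deposited 1 log2 signal per probe set and array, summarised by RMA per the submitters' processing notes; no source used here gives its version or settings. No filter was applied. Gene symbols came from the platform annotation, under which 19572 of 22206 probe sets carried 1 symbol, and the order of Mmu16 genes from a RefSeq gene table.

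The genotype tests used limma 3.58.1 under R 4.3.3 (eBayes, two-sided, Benjamini-Hochberg over all probe sets, threshold 10%, the study's false discovery rate), Ts65Dn and Ts66Yah each against its own euploid group, and in 1 fit of all groups for the difference of effects. Correlations used numpy 2.4.6 in Python 3.11.15 and figures matplotlib 3.10.9. The limma test within a colony and the permutation test were checked on simulated data. Those values were drawn independently, without litters, shared array variation or the low-spread array, so these features were not checked. The difference of effects was not checked either. Embryos are separate animals, and the dam in the labels pairs genotypes within litters; deviations of littermate groups correlated at -0.18 to 0.35 over the 11103 brighter probe sets. No pair of arrays held identical values (highest r 0.987).

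Members, gene lists and tests were chosen with earlier results of these data known. All 7 members are named; of other lists, those past 10% in either comparison, with or without the low-spread array (up to 4, smallest p first), or else the one with the smallest p, and 3 likeness genes per member. Bach1, the genes directly after Grik1, Adarb1 and the forebrain and hindbrain genes were added after their values were seen. The alternatives tried are named in the closing section. Some genes of the lists were not analysed here. The labels assign 24 Ts66Yah embryos, which was followed, although the series text counts 25.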

Additional observations from a re-analysis of the deposited data

How the results depend on the processing

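The Grik1 change kept its direction and its call in all 14 other settings in Ts65Dn (0.36 to 0.46 on the log2 scale) and in all 18 in Ts66Yah (0.36 to 0.58), among them sex as a covariate, other normalizations, the series' t-test, a 5% threshold, its marginal criterion, a signal filter and array weights. Leaving out each litter in turn gave 0.40 to 0.45 in Ts65Dn and 0.43 to 0.61 in Ts66Yah, low-spread array in or out. Without litter WT12 it lost its call (0.52, adjusted p = 0.20 by limma), so the count of members called ran from 0 to 1. The litter as a replicate block changed no member's call (Grik1 0.46 and 0.55). Probe sets called in Ts66Yah numbered 38, rising to 207 once the low-spread array was left out, 326 without it and the arrays nearer the other genotype, 272 without arrays against their sex label, 279 with array spread as a covariate, 158 with array weights and 472 by the marginal criterion. In Ts65Dn they numbered 109, 68 with all groups in 1 fit and 246 by the marginal criterion.

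Sign changes concerned values that passed in no setting, and their cause was not tested. The difference of effects of Grik1 turned to 0.028 without the 6 narrower EupTs66Yah arrays, to 0.0053 with array spread as a covariate and to 0.076 with that covariate and without the low-spread array. Grik3 in Ts65Dn was near 0, with -0.021 under the litter block, -9.19e-05 after centring, -0.0075 with array weights and -0.017 without arrays against their sex label. In Ts66Yah, Neto1 and Neto2 had -0.063 and -0.048 with array weights, -0.048 and -0.052 without the low-spread array, and -0.090 and -0.080 without the narrower arrays. They had -0.067 and -0.063 without the low-spread array and the arrays nearer the other genotype, -0.063 and -0.082 without arrays against their sex label, and -0.075 and -0.064 without the low-spread array under the litter block. With array spread as a covariate Neto1 and Neto2 had -0.15 and -0.16, Grik2 -0.050, Grik3 -0.0026 and Grik5 -0.00096. With that covariate and without the low-spread array Neto1 and Neto2 had -0.11 and -0.090, Grik2 -0.033 and Grik3 -0.0080. Leaving out a litter in turn gave -0.071 to 0.0012 for Grik2, -0.031 to 0.046 for Grik3 and -0.016 to 0.12 for Grik4 in Ts65Dn. In Ts66Yah it gave -0.014 to 0.27 for Grik2, -0.072 to 0.21 for Neto1 and -0.072 to 0.25 for Neto2.

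Correlated pairs of the Ts66Yah colony numbered 8, 15 with the low-spread array and 5 with array spread subtracted. In the Ts65Dn colony r of Grik1 with Grik2 and with Grik3 turned to -0.0047 and 0.14 with litter effects subtracted. Some settings were chosen after seeing the data: the spread covariate without the low-spread array, the litter block without it in the difference of effects, litters left out without it, and array spread subtracted from correlations. The number of embryos limits the precision.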
